A study of Homo sapiens with 4 samples.

Results

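Peaks of 2 RNA-binding proteins were examined in 10 genes of NF-kB signalling and its cytokine output in MDA-MB-231, a human cell line from breast cancer that is known for high cytokine secretion. The genes were the cytokines and chemokines IL6, CXCL8, CXCL1 and LIF, the NF-kB subunits NFKB1, NFKB2, RELA and RELB, and the inhibitors NFKBIA and TNFAIP3. Their peaks were taken by the NCBI Gene ID that each listed peak carried. They held 28 of 72614 distinct peak positions, all 28 of them PABPC4 peaks and 0 of them HNRNPC peaks. The experiments were irCLIP for HNRNPC, a mostly nuclear protein that binds U-rich RNA, and PAPERCLIP for PABPC4, a poly(A)-binding protein, with 2 samples for each. Both cross-link protein to RNA with ultraviolet light (400 mJ/cm2 at 254 nm), pull the protein down with an antibody and sequence the RNA left on it as tags. In PAPERCLIP reverse transcription starts at the poly(A) tail, so that peaks mark mRNA 3′ ends. The labels give the same line for all samples, with no genotype or drug that differs between them. The authors merged the replicates of a protein into 1 peak list, so the values have no replicate error and no condition could be tested.

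NF-kB is a family of transcription factors that pair up as dimers and are held in the cytoplasm by inhibitors until a signal such as a bacterial product or an inflammatory cytokine releases them. They then switch on cytokine genes, and also the genes of their own inhibitors, which ends the response. Many cytokine mRNAs are short-lived because their 3′ UTRs carry AU-rich elements, often written as AUUUA, which recruit decay factors. The choice of 3′ end sets whether such elements are in the mRNA.

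The 3′ ends that carry the PABPC4 findings are printed first. Each line gives the 30 nt up to the end of a peak in the direction of the mRNA, as RNA, read from the hg38 reference. The NFKB1 and TNFAIP3 peaks are only 22 and 26 nt wide, so that their lines begin before the peak. The whole NFKB1 signal lies before its peak. The poly(A) signals AAUAAA and AUUAAA, which direct cleavage a short way downstream, are in capitals.
LIF, chr22:30240453-30240482, minus strand: aaagagaaaugAAUAAAgaaucuacucuug
RELA, chr11:65653601-65653630, minus strand: ucugaacuAAUAAAucuguugccaagcugg
RELB, chr19:45038165-45038194, plus strand: cuucccAAUAAAgaugaguuuuugagccuc
NFKB1, chr4:102617272-102617301, plus strand: uAAUAAAaggaaaagcaaauugaugaccuc
NFKBIA, chr14:35401514-35401543, minus strand: gauguauauuuAUUAAAcagauuuuuacaa
TNFAIP3, chr6:137883279-137883308, plus strand: gagucaacAUUAAAaAAUAAAuuauuuaag
CXCL1, chr4:73871207-73871236, plus strand: auagagaauauaaaAAUAAAgcacuuauag
CXCL8, chr4:73743684-73743713, plus strand: aaacauuuaaaauauaauuuguugucaaag
NFKB2, chr10:102402494-102402523, plus strand: gggaaggggaggaccccuccuucccaacuu

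The next lines give the 30 nt that follow other peaks in the genome, with runs of 4 or more A in capitals. They are shown because an A-rich stretch in the RNA itself is a place where a T primer can also pair. Most peaks outside the 3′ UTRs stood just before such a stretch. The NFKBIA and NFKB1 lines follow 3′ UTR peaks, and the NFKB2 and RELB lines follow peaks outside 3′ UTRs.
NFKBIA, after the tallest peak, chr14:35401911-35401940, minus strand: AAAAAgaagAAAAAAuuuaaaggguguacu
NFKB1, after the tallest peak, chr4:102617098-102617127, plus strand: cAAAAAAAAAAAAAAAAAAAAuacuuguca
NFKB2, after the peak inside the gene, chr10:102399217-102399246, plus strand: AAAAAAAAAAAAAAAAAucugggagaguca
RELB, after an intron peak, chr19:45003476-45003505, plus strand: AAAAAAAAAAAAAAAAAAAAAAAAgcguga

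PABPC4 peaks were listed in 9 of the 10 genes, all but IL6, against 59.2% of 20056 protein-coding genes. All 9 had a peak in the 3′ UTR, against 48.7% of protein-coding genes. LIF, NFKB1, RELB and NFKBIA, 4 of the 10, had 2 or more there, which 25.1% of all protein-coding genes and 51.5% of those with any had. With peaks before an A-rich stretch left out (a run of 6 A, or any 10 nt with 7 A, in the 50 nt past the peak end), 7 of the 10 kept a 3′ UTR peak, against 42.3% of protein-coding genes, and CXCL1 and TNFAIP3 were the 2 that did not. With a limit of 20 nt TNFAIP3 kept its peak as well. Peak height, the number of unique tags at the summit, ran from 6 to 309 over the 28 peaks with a median of 42, and the whole PABPC4 list had a median of 38. Height follows both mRNA level and binding, which cannot be told apart here, since mRNA levels were not analysed.

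**Figure D1:**
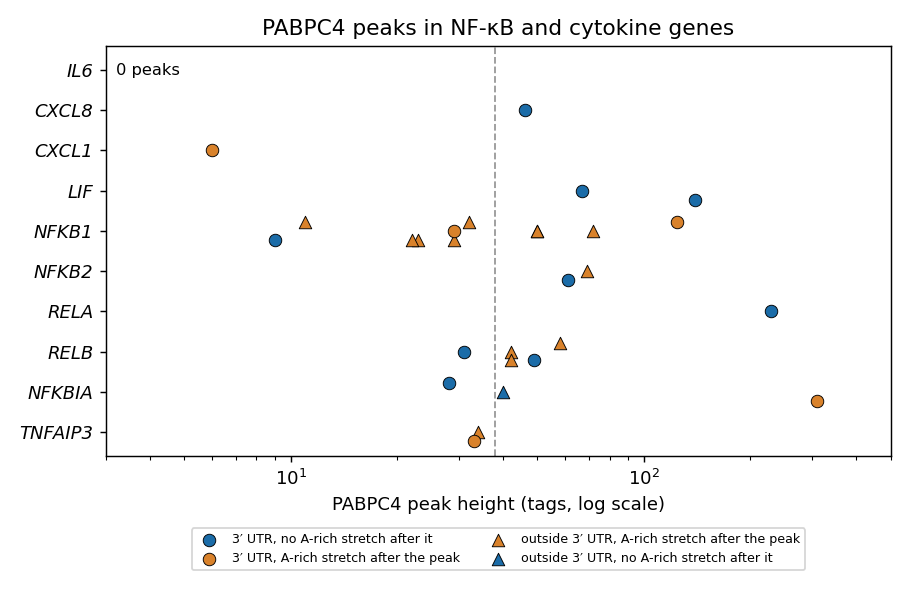
Height of each of the 28 PABPC4 peaks (tags at the summit, log scale) by gene, with circles for 3′ UTR peaks, triangles for other peaks, orange for peaks before an A-rich stretch within 50 nt and blue for the rest. Small vertical shifts only separate points, and the dashed line is the list median of 38 tags. NFKBIA (309 tags) and RELA (229 tags) had the tallest peaks, and IL6 had 0.

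Over the 28 peaks, 14 (50%, 95% Wilson interval 32.6 to 67.4%) lay in 3′ UTRs, against 29.7% of the PABPC4 list. There were 11 (39.3%, 23.6 to 57.6%) in introns, against 60.2% of the list, 2 in coding sequence and 1 in a non-coding exon. Of the 14 3′ UTR peaks, 11 (78.6%, 52.4 to 92.4%) ended within 50 nt of the 3′ end of a protein-coding GENCODE transcript, against 48.8% of the 3′ UTR peaks in the list. There were 8 peaks, 1 in each member with peaks other than CXCL1, that ended within 4 nt of an annotated end, 4 of them (LIF, NFKB1, NFKB2 and RELA) exactly at it, and 28.2% of the 3′ UTR peaks in the list ended within 4 nt. Of these 8, 6 held AAUAAA or AUUAAA between 40 nt before and 10 nt after the peak end on the RNA strand. Those of CXCL8 and NFKB2 did not. Over all 14 the signal was found in 7 (50%, 26.8 to 73.2%), and in 52% of the 3′ UTR peaks in the list. A match says only that the letters are there. These intervals cover counting error only, and peaks of 1 gene share their source.

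**Figure D2:**
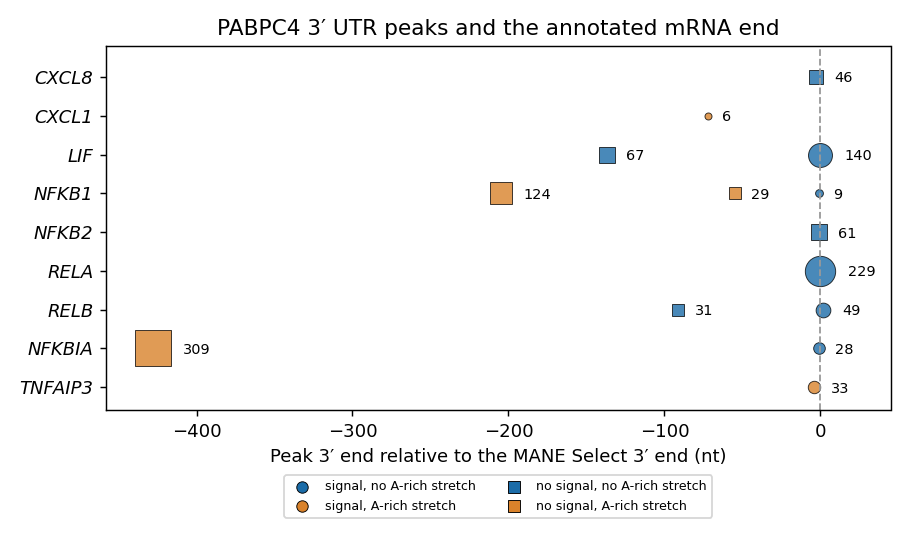
End of each of the 14 PABPC4 3′ UTR peaks in nt from the end of the reference transcript (MANE Select, dashed line at 0), by gene, with symbol area rising with height and the height in tags beside it. Circles hold AAUAAA or AUUAAA near the end, squares do not, and orange marks an A-rich stretch within 50 nt downstream. 8 genes have a peak within 4 nt of the line, while the tallest peaks of NFKBIA and NFKB1 lie 428 and 205 nt before it.

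Among the secreted factors, LIF, a cytokine of the interleukin 6 family that signals through STAT3, had the most tags. Its 2 peaks were both in the 3′ UTR, with heights of 67 and 140. The taller ended exactly at the annotated end, 3198 nt after the stop codon, with AAUAAA starting 19 nt before the peak end. The shorter ended 137 nt before that, with neither signal nor A-rich stretch. The taller held 67.6% (61.0 to 73.6%) of the 207 summit tags summed over both. Intervals of such shares cover counting error only.

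CXCL8, a chemokine that attracts neutrophils, had 1 peak of 46 tags. It ended 3 nt before the annotated end, 1249 nt after the stop codon. As its sequence above shows, neither AAUAAA nor AUUAAA was present, though a 6-mer with 1 mismatch to AAUAAA was. The 3′ UTR up to that peak held all 9 of its AUUUA elements. CXCL1, a neighbouring chemokine gene of the same family, had 1 peak of only 6 tags, with the authors' p-value at 0.025. It ended 700 nt after the stop codon and 72 nt before the annotated end, with AAUAAA starting 16 nt before the peak end and 6 A directly after it. The 3′ UTR up to that point held 5 of 6 AUUUA elements. Of 9769 genes with a PABPC4 3′ UTR peak, 98.9% had a tallest one at least as high as that of CXCL1, and 66.4% had one at least as high as that of CXCL8.

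IL6, an inflammatory cytokine, had no peak in either list. Its 3′ UTR is 425 nt long in the reference transcript and holds 6 AUUUA, or 14.1 per kb, and 0.527% of 18780 genes with a reference 3′ UTR have at least that density. CXCL1 (7.77 per kb, 2.74% of genes) and CXCL8 (7.19 per kb, 3.54%) also stood high in that order. LIF, with 7 AUUUA in a long 3′ UTR (2.19 per kb, 39.3%), did not. The median gene has 1.55 per kb. High density was not limited to the secreted factors. NFKB2 has 6.76 per kb (4.19% of genes), from 1 AUUUA in a short 3′ UTR, and NFKBIA has 6 per kb (5.99%). NFKB1 has 4.24 and TNFAIP3 2.51 per kb, and RELA and RELB have 0. The lists hold only peaks that passed the authors' caller, so that an unlisted gene may still have carried tags.

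Among the NF-kB subunits, RELA, which carries the main activating domain of the classical dimer, had the simplest pattern. It had 1 peak of 229 tags, ending exactly at the annotated end 777 nt after the stop codon, with AAUAAA starting 22 nt before the peak end. No A-rich stretch followed, and no AUUUA is in its 3′ UTR. Of the 9769 genes, 14.2% had a tallest 3′ UTR peak at least as high.

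NFKB1, the precursor of the DNA-binding partner of RELA, had 11 peaks, the most of the 10 genes, over 116 kb. There were 7 in introns, with heights of 11 to 72, and 1 of 50 tags in the coding sequence of an alternative transcript, which is intron in the reference transcript. All 8 stood before an A-rich stretch. The 3 3′ UTR peaks had heights of 124, 29 and 9, ending 503, 653 and 707 nt after the stop codon. The tallest held 76.5% (69.5 to 82.4%) of their 162 tags and was followed by a run of 20 A in the genome, printed above. A protein-coding transcript is annotated to end 20 nt past it. The lowest ended at an annotated end with AAUAAA starting 29 nt before. So the end with the most tags had no signal and the end with the fewest had one. Leaving out peaks before an A-rich stretch within 50 nt left only the peak of 9 tags, and within 20 nt left those of 29 and 9. The part of the A-run in the tallest peak was not tested. The 2 ends differ in AU-rich content: 1 of 3 AUUUA lies before the tallest peak end and all 3 before the last.

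NFKB2, the subunit of the alternative pathway, had a peak of 69 tags inside the gene and one of 61 tags at its end. The first lay in a non-coding exon (intron in the reference transcript), was followed by a run of 17 A and resembled 7SL RNA, from which Alu repeats descend, on the same strand (87.5% identity over 64 nt). The second ended at an annotated end, 147 nt after the stop codon of a short 148 nt 3′ UTR, without a signal in the window. So the taller peak was not the one at the mRNA end.

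RELB, the other subunit of the alternative pathway, had 5 peaks. The 3 intron peaks had heights of 42, 42 and 58, and all resembled 7SL RNA on the same strand and stood before an A-rich stretch. Its 3′ UTR peaks had heights of 31 and 49, and the taller, which held 61.3% (50.3 to 71.2%) of 80 tags, ended 2 nt past the reference end with AAUAAA starting 24 nt before. The shorter, without a signal, ended 21 nt before another annotated end. The interval for the taller peak's share begins near an even split and covers only the counting error of summit tags.

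Among the inhibitors, NFKBIA, which holds NF-kB dimers in the cytoplasm and is itself an NF-kB target, had the tallest peak of all 28. Its 3 peaks had heights of 40, 309 and 28, the first in coding sequence and the other two in the 3′ UTR. The peak of 309 tags was 120 nt wide, spanned the stop codon and ended 72 nt after the stop codon, and its end was followed by an A-rich stretch (printed above), with 15 A in 20 nt. The peak of 28 tags ended 499 nt after the stop codon, 1 nt before the annotated end, with AUUAAA starting 19 nt before (authors' p-value 0.0032). All 3 AUUUA elements of the 3′ UTR lay between these 2 ends. The early peak held 91.7% (88.3 to 94.2%) of 337 tags. A protein-coding transcript is also annotated to end 15 nt past it, within the A-rich stretch. Without peaks before an A-rich stretch the tallest NFKBIA 3′ UTR peak fell from 309 to 28 tags, and the share of genes with one at least as high rose from 9.53% to 77.2%. The part of the A-rich stretch in the early peak was not tested. The coding peak ended 10 nt before an exon end and had neither a signal nor an A-rich stretch after it.

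TNFAIP3, a ubiquitin-editing enzyme that shuts down signalling upstream of NF-kB, had an intron peak of 34 tags before an A-rich stretch and a 3′ UTR peak of 33 tags. The latter ended 4 nt before the annotated end, 1989 nt after the stop codon, with AUUAAA and AAUAAA starting 22 and 15 nt before the peak end. All 5 AUUUA elements lay before it. An A-rich stretch followed within 50 nt but not within 20 nt, so it lies past that annotated end in the genome. With the limit of 20 nt the peak of 33 tags was kept.

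**Figure D3:**
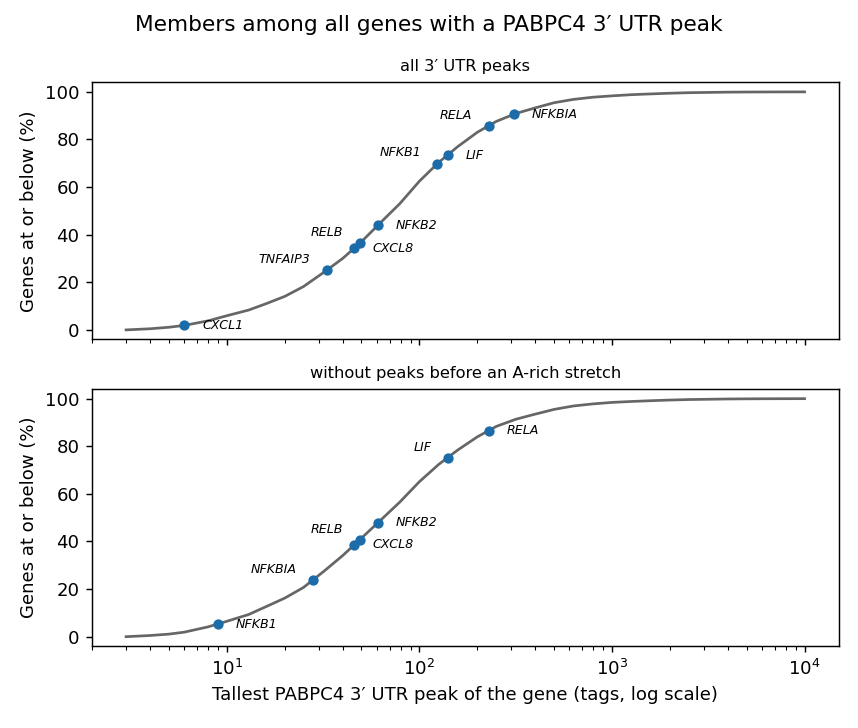
Share of genes (percent, vertical axis) whose tallest PABPC4 3′ UTR peak was at or below a height (tags, log scale), over 9769 genes with any such peak (upper panel) and 8493 genes after leaving out peaks before an A-rich stretch within 50 nt (lower panel), with members as points. NFKBIA moves from 309 to 28 tags and NFKB1 from 124 to 9, CXCL1 and TNFAIP3 drop out, and LIF, RELA, CXCL8, NFKB2 and RELB keep their heights.

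Peaks outside 3′ UTRs shared this downstream feature. An A-rich stretch followed 13 of the 14, all but the coding peak of NFKBIA, and it followed 69.7% of the peaks outside 3′ UTRs in the list. It followed all 11 intron peaks (74.1 to 100%), against 71.2% of the intron peaks in the list. Of these 11 peaks, 7 were in NFKB1 and 3 in RELB, and the interval covers counting error only. Such a stretch followed 5 of the 14 3′ UTR peaks (35.7%, 16.3 to 61.2%), against 32% of those in the list. None of the 11 intron peaks had a poly(A) signal near its end, which 10.3% of the intron peaks in the list had. A match to 7SL RNA was found at 6 of the 11 (54.5%, 28.0 to 78.7%), 5 of them on the same strand, and at 54.4% of the intron peaks in the list. Peaks before an A-rich stretch held 1035 of the 1735 tags summed over the 28 heights (59.7%), against 48% in the list.

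HNRNPC peaks were listed in 0 of the 10 genes, against 19% of protein-coding genes, 31.4% of those with a PABPC4 peak and 34.4% of those with a PABPC4 3′ UTR peak. The 3′ UTR held one in 0 of the 10, against 1.98% of protein-coding genes. None lay within the span of a member on either strand. The nearest on the same strand was 31.2 kb away, for RELB, and the farthest of these distances was 3123 kb, for NFKB1. Most of the members are short genes, and the share of genes with an HNRNPC peak rose with length. It was 1.53% for genes under 5 kb (IL6, CXCL8, CXCL1 and NFKBIA), 8.96% from 5 to 20 kb (LIF, NFKB2, RELA and TNFAIP3), 21.5% from 20 to 50 kb (RELB) and 34.3% from 50 to 200 kb (NFKB1). Summed over the members, these shares come to 0.977 genes, or 1.60 genes for the 9 members with a PABPC4 peak when only genes with such a peak are counted. The count of 0 was therefore near the background for genes of these lengths.

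**Figure D4:**
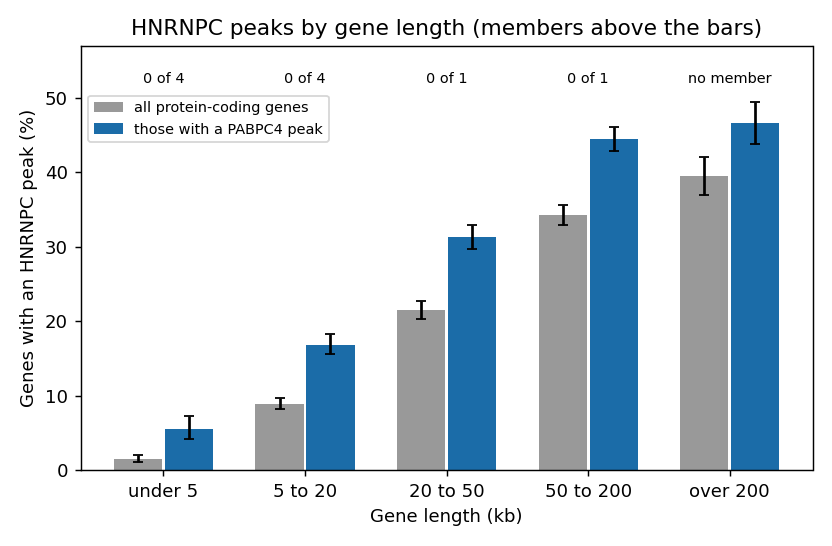
Percent of protein-coding genes with an HNRNPC peak by gene length (kb), for all genes (grey) and for those with a PABPC4 peak (blue), with 95% Wilson intervals as error bars and the members' counts above. The grey share rises from 1.53% under 5 kb to 39.5% over 200 kb, and 8 of the 10 members lie in the 2 shortest classes, where 0 have a peak.

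Runs of UUUUU, the kind of sequence HNRNPC binds, were also counted over each gene. The median protein-coding gene has 6.96 per kb and the median gene with an HNRNPC peak has 8.92 per kb. Of the members, 7 lie below the first of these medians and 3 above it. Those above are RELB with 401 runs (10.9 per kb), CXCL8 with 27 (8.44 per kb), of which 17 are in the 3′ UTR, and NFKB1 with 840 (7.24 per kb). TNFAIP3 has 6.09 per kb, IL6 4.74, RELA 3.37, NFKBIA 3.27, LIF 2.22 and CXCL1 1.57 per kb, and NFKB2 has 0. The part of U-run content in the count of 0 HNRNPC peaks was not tested. Overlapping runs were counted separately, on the RNA strand only.

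A list of 78 other genes of the pathway gives the setting. HNRNPC peaks were listed in 20 (25.6%, 17.3 to 36.3%), against 19% of protein-coding genes, and the length-class shares summed over the 78 come to 14.6 genes. PABPC4 peaks were listed in 60 (76.9%, 66.4 to 84.9%), against 59.2%, and in the 3′ UTRs of 54 (69.2%, 58.3 to 78.4%), against 48.7%. Of these 60 genes, 19 (31.7%, 21.3 to 44.2%) had an HNRNPC peak, against 31.4% of all protein-coding genes with a PABPC4 peak. So among genes with a PABPC4 peak the HNRNPC share was near the background. Among 16 other cytokines and chemokines HNRNPC had a peak in 1, where the length-class shares sum to 0.816, and PABPC4 in 6. The 1 was CSF3, a growth factor for granulocytes, with a peak of 23 tags in coding sequence; it lies outside the naming rule and was named after its values were seen. Among 9 factors that control the decay of cytokine mRNAs HNRNPC had a peak in 5, beside a sum of 1.41, and PABPC4 in 7. Of the other groups, HNRNPC had a peak in 4 of 6 JAK-STAT genes (sum 1.65), 4 of 10 IKK and upstream kinases (2.79), 2 of 12 receptor adaptors (2.39), 2 of 10 cytokine receptors (2.46), 1 of 9 ubiquitin editors (2.20) and 1 of 6 other NF-kB subunits and inhibitors (0.916). These sums use all genes of a length class, and the shares are higher among genes with a PABPC4 peak. Groups of so few genes are a description only. The tallest PABPC4 3′ UTR peaks of the list were those of ZFP36L1 (1733 tags) and KHSRP (1221 tags), both of which bind AU-rich elements and promote decay, followed by the receptor TNFRSF1A (521 tags), the AU-rich element binder HNRNPD (446 tags) and the transcription factor STAT3 (419 tags). All 5 stood above the tallest member peak, the 309 tags of NFKBIA. Peaks before an A-rich stretch were kept on both sides here, and the NFKBIA peak is such a peak. The tallest HNRNPC peaks were in IKBKB, a kinase that marks NFKBIA for destruction (109 tags, intron), the adaptor TRAF2 (77 tags, 5′ UTR) and the ubiquitin ligase ITCH (36 tags, intron). The highest numbers of HNRNPC peaks were listed for ELAVL1, which binds and stabilises AU-rich mRNAs (6, of which 5 lay within its span), TRAF2 (6) and MAP3K14, the kinase of the alternative pathway (4). Of the 44 HNRNPC peaks in the list of 78 genes, 37 (84.1%, 70.6 to 92.1%) were in introns, against 85.5% of all HNRNPC peaks, and 1, in KHSRP, was in a 3′ UTR. UUUUU was within 10 of the 44 peaks (22.7%, 12.8 to 37.0%), against 13.3% of all HNRNPC peaks. In the 50 nt before the peak the order was the other way, with UUUUU at 11 (25%, 14.6 to 39.4%), against 30.5%. A resemblance to 7SL RNA was found at 14 (31.8%, 20 to 46.6%), against 34.1%. GUGUCA stood at the 3′ end of 21 (47.7%, 33.8 to 62.1%), against 37.5% of all HNRNPC peaks. It is not a U run, and its rate by chance was not computed. Why it stands there, and whether HNRNPC binds it, was not tested. The peaks of IKBKB and CSF3 and the tallest of ITCH held it there, and the tallest of TRAF2 did not.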

How the data were processed

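Per the study's methods, reads were collapsed by molecular identifier, trimmed with UMI-tools and cutadapt, aligned to hg38 with BWA 0.7.17 (named in the submitters' processing notes) and peaks were called with the CLIP Tool Kit. This was described for HNRNPC, and for PABPC4 no separate account is given in the sources used here. The HNRNPC method is irCLIP in the labels, while the deposited list is named for HITS-CLIP. The deposited signal of each peak is its height in unique tags, pooled by the authors over replicates and not scaled to depth. Library depths are unknown here. Each name field also holds a gene ID, the height expected by chance and the authors' p-value, which cannot go below 1e-100.

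The HNRNPC list has 10388 entries at 9107 positions and the PABPC4 list 69778 at 63507, each position counted once. Features come from GENCODE 44 protein-coding transcripts by peak centre, strand-matched, with 3′ UTR taking precedence over coding sequence, then 5′ UTR, non-coding exon and intron. 0 peaks ran past a chromosome end. Symbols come from RefSeq (GRCh38.p14), with 4090 of 4098 and 13155 of 13189 IDs matched. Resemblance to 7SL RNA (RN7SL1, read from the reference) was by BLAST 2.17.0 with 100 nt on each side and E at most 1e-05, and GUGUCA was sought from the last 25 nt of the peak to 10 nt beyond. Wilson intervals (95%) used Python 3.11.15. The annotation and motif steps were tested on simulated data. No test was run, since each protein has 1 pooled list. Heights were compared only within a list.

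Named were all members and, from the 78 pathway genes, the 3 with the tallest HNRNPC peak, the 5 whose PABPC4 3′ UTR peak was tallest and the 3 with the most HNRNPC peaks. Members, lists and rules were chosen with earlier results of these data known. The alternatives are stricter p-values or heights, A-rich and signal definitions, and transcript sets.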

Additional observations from a re-analysis of the deposited data

How the results depend on the processing

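Of 46 recalculations, 39 left the value within the limits set and 7 moved it. A change from 9 to 7 members counted as within the limits. Some of the 39 could not have moved the value. Settings that only remove peaks cannot change a count of 0 HNRNPC peaks. LIF and RELB had no 3′ UTR peak before an A-rich stretch to leave out, and no member peak carried several gene IDs. The count of 28 PABPC4 peaks in the members became 16 with peaks at or above the list's median height and 10 without peaks before an A-rich stretch within 50 nt, and in the latter setting 90% of them (9 of 10) lay in 3′ UTRs instead of 50%. The share of 3′ UTR peaks with a poly(A) signal rose from 50% to 78.6% when a mismatch was allowed, against 77.4% in the list. The share of 3′ UTR tags in the tallest remaining peak became 100% for NFKB1 (9 of 9 tags) without peaks before an A-rich stretch within 50 nt, and 100% for NFKBIA (28 of 28 tags) with a limit of 50 or 20 nt, since 1 peak was left in each case. The number of members with a PABPC4 3′ UTR peak was between 7 and 9, and that with an HNRNPC peak was 0, under every setting run for them. The settings for HNRNPC removed listed peaks or assigned them by gene span. They could not show tags that the authors' caller left out. Allowing a mismatch, the 20 nt limit for 3′ UTR peaks and the 3′ UTRs of reference transcripts alone were chosen after seeing the data. No paired analysis was possible because the authors merged the replicates of a protein before peak calling, and for the same reason no replicate could be left out.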
